A study of Mus musculus with 4 samples.

Results

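The genes described here are 43 protein-coding genes whose products build the small ribosomal subunit, the 40S, and work around the step at which Dhx37 acts. They were chosen by symbol, from the known make-up of the small subunit (SSU) processome and of the late 40S particles, and each of the 43 symbols matched 1 of the 55357 genes in the deposited feature lists. Nuclei of whole testes were profiled by 10x Genomics 3′ single-nucleus RNA-seq in 4 libraries, 2 from WT mice and 2 from Dhx37-/- mice, all labelled 8 weeks of age, with the floxed line on a C57BL/6 base. In the Dhx37-/- mice, Cre driven by the Amh promoter removed a floxed Dhx37 exon in Sertoli cells, so germ cells and interstitial cells of both genotypes keep an intact Dhx37 gene by design. The labels call the libraries of a genotype biological replicates and do not say which or how many animals each came from.

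The SSU processome is the large particle that forms on the nascent pre-rRNA in the nucleolus. Its UTP-A, UTP-B and UTP-C subcomplexes and the U3 small nucleolar RNP fold the 5′ part of the transcript, and a set of helicases, GTPases and nucleases later takes the particle apart and leaves a pre-40S subunit that is exported and finished in the cytoplasm. DHX37 is the DEAH-box helicase that displaces U3 from the pre-rRNA, and its yeast relative is bound and stimulated by the UTP14 protein. Germ cells pass through meiosis with the X chromosome silenced, and the mouse genome holds an X-linked Utp14a and an autosomal retrogene copy, Utp14b, whose loss is known to stop spermatogenesis in juvenile spermatogonial depletion mice.

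After filtering, 8295 to 10022 nuclei per library were kept, with a median of 3302 to 4158 UMIs (unique molecular identifiers, each standing for 1 captured RNA molecule) per nucleus. Pairs of libraries shared 19 to 29 barcodes, at most 0.293% of the smaller library. Clusters were named "-like" from marker genes, with 11 of 11 Sertoli markers raised in the Sertoli-like cluster and 9 of 10 early meiotic prophase markers raised in the early meiotic prophase-like cluster. The round spermatid-like clusters raised 5, 9 and 9 of 12 markers. By the count that gives the markers of other classes below, the cluster led by Cntn3 raised 7 of its 12. The spermatocyte-like cluster, led by Syt16, raised 6 of 10, and also 6 of 10 early meiotic prophase markers. With finer clusters (resolution 1.0) a cluster led by Syt16 took no name. In all, 3 clusters with 8623 of 37034 nuclei (23.3%) took no name and entered no class. The early meiotic prophase-like cluster also raised 6 of 14 spermatogonia markers and held 76.2% of its nuclei from Dhx37-/- libraries. The macrophage-like cluster raised 7 of 8 T cell markers as well as its own, and the fibroblast-like cluster 6 of 8 peritubular myoid markers. An elongating spermatid-like cluster led by Ung, with 3890 of the 9276 nuclei of its class, raised 12 of 12 of its own markers. It also raised 6 of 10 spermatocyte, 5 of 11 Sertoli and 4 of 14 spermatogonia markers. The Sertoli-like class held 65, 17, 187 and 242 nuclei in WT replicates 1 and 2 and Dhx37-/- replicates 1 and 2. Every value below is a sum of UMIs over the nuclei of a class in 1 library, given as CPM, the UMIs of a gene scaled to the total UMIs of that class in that library, unless UMIs are named, and library values are listed in that same order. A second cluster with spermatocyte markers, led by Stox1, came 93.5% from Dhx37-/- libraries, and it was kept out of the spermatocyte-like class as a class set apart. This was done where a class had more than 1 cluster and over 80% of a cluster came from 1 genotype. The Sertoli-like class, of 1 cluster, was kept with 84.0% from Dhx37-/- libraries. Subclusters of 197 and 126 nuclei, with 92.4% and 83.3% from Dhx37-/- libraries, also stayed in the early meiotic prophase-like class and its genotype test.

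Dhx37 itself was low in all libraries. Over all kept nuclei it reached 7.06 and 11.8 CPM in WT and 10.4 and 10.6 CPM in Dhx37-/- libraries. In Sertoli-like nuclei it was counted 4, 3, 12 and 14 times, which is 7.51, 25.1, 10.3 and 6.69 CPM, so the genotypes overlapped. The 3′ tags counted here need not come from the floxed exon, so these values do not check the deletion, and Dhx37 did not pass the filter on low counts in Sertoli-like nuclei.

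The 43 genes were detected in every library, with 29025 to 49091 UMIs among them per library. Nol6 or Nop56 had the fewest UMIs (49 to 189) and Fbl the most (3510 to 9416). In sum they were highest in early meiotic prophase-like nuclei, with 2341, 2944, 2343 and 2508 CPM and a mean of 2534 ± 284 (SD, n = 4). Sertoli-like nuclei came next with 1279, 1431, 1575 and 1486 CPM, a mean of 1443 ± 124. No library's Sertoli-like value reached any early meiotic prophase-like value. Fibroblast-like (1208 ± 82.5), macrophage-like (1171 ± 84.3), Leydig-like (1058 ± 87.7) and spermatocyte-like nuclei (1025 ± 48.8) followed, and the spreads of neighbours in this order overlapped. The spermatocyte-like class set apart held 1191 ± 103 CPM. The elongating spermatids (899 ± 85.8) and round spermatids (880 ± 69.8) so named were lowest and did not differ from each other beyond their spread. The free RNA of droplets without a nucleus held these genes at 1086 ± 52.7 CPM, below the early meiotic prophase-like and Sertoli-like levels and above the spermatid-like levels. It was also above the Leydig-like and spermatocyte-like means. Its spread overlapped with those of the fibroblast-like, macrophage-like, Leydig-like and spermatocyte-like classes and of the class set apart.

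The order depended on the scale. Per nucleus, Sertoli-like nuclei held 10.5, 10.1, 9.85 and 12.8 UMIs of the 43 genes and early meiotic prophase-like nuclei 6.93, 8.74, 9.90 and 10.7. The early meiotic prophase-like value was the higher of the pair in 4 of 4 libraries by CPM and in 1 of 4 libraries per nucleus. The median Sertoli-like nucleus held 2.06 times the UMIs of the median nucleus. The class set apart held 9.26 ± 1.70 UMIs per nucleus and spermatocyte-like nuclei 4.32 ± 0.649. Elongating spermatid-like nuclei held the fewest, at 2.46 ± 0.351 UMIs per nucleus (SD, n = 4). In their clusters led by Efemp1 and Ung, the median nucleus held 0.931 and 0.356 times the UMIs of the median nucleus. The early meiotic prophase-like sum exceeded the round spermatid-like sum 2.89 ± 0.301 times by CPM and 2.41 times per nucleus, each in 4 of 4 libraries. Where single nuclei were assigned by at least 2 markers in place of clusters, the first of these folds was 1.24. A small subcluster of the early meiotic prophase-like cluster, with 10 of 14 spermatogonia markers raised and 9, 3, 17 and 37 nuclei, reached 3210, 4620, 3204 and 3202 CPM, above the cluster as a whole in every library.

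**Figure D1:**
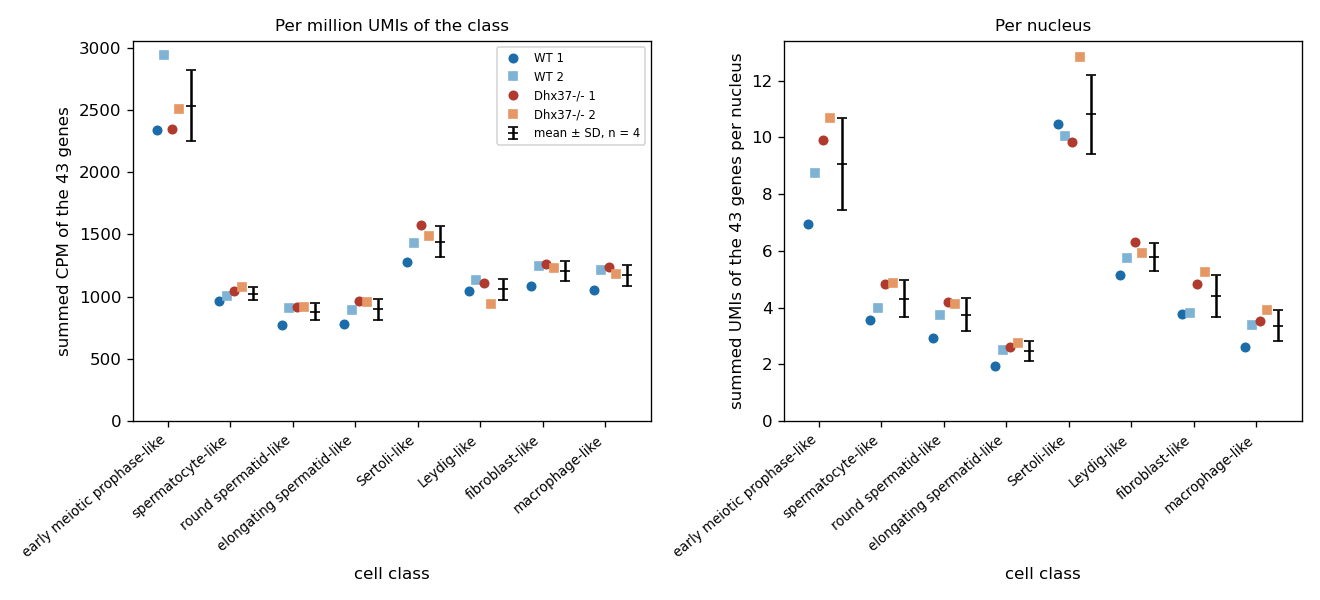
Summed level of the 43 genes in 8 cell classes, as CPM of the class (left) and as UMIs per nucleus (right), with 1 point per library and the mean ± SD of 4 libraries in black. Early meiotic prophase-like nuclei stand highest by CPM (mean 2534), and Sertoli-like nuclei have the highest mean per nucleus (10.8 UMIs).

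Single genes followed the sum with named exceptions. Of the 43, 29 had their highest mean in early meiotic prophase-like nuclei, 16 of them in each of the 4 libraries. Macrophage-like nuclei were highest for Wdr3, Wdr36, Imp4 and Krr1, Sertoli-like nuclei for Utp15, Rrp9 and Utp14a, and elongating spermatid-like nuclei for Fbl, Bysl and Tsr1. Fibroblast-like nuclei were highest for Imp3 and Rcl1, Leydig-like nuclei for Nob1 and spermatocyte-like nuclei for Nop14. The lowest mean lay in round spermatid-like nuclei for 20 genes and in elongating spermatid-like nuclei for 9. The share of all genes with their highest or lowest mean in each class is not given here. These counts therefore have no background beside them, and do not set the 43 genes apart from other genes. For pairs of classes the share of all genes follows.

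No test was made between classes, because classes were defined from the same nuclei. As a description, 39 of the 43 genes were higher in early meiotic prophase-like than in round spermatid-like nuclei in all 4 libraries, where 39% of 22229 genes with at least 50 UMIs in both classes together were. With nuclei assigned one by one from markers the 39 became 27, beside 41.1% of 22563 genes. The median log2 ratio of the class means was 2.28 over the 43 genes and 0.18 over those genes. Against spermatocyte-like nuclei 35 of 43 were higher in all 4 libraries and 0 lower, beside 36.4% of all genes higher. Against Leydig-like nuclei 36 of 43 were higher, beside 51.6%, and against Sertoli-like nuclei 28 of 43, beside 51.5%. The share among the 43 genes was thus nearer to the background for the Sertoli-like comparison than for the round spermatid-like comparison.

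Sertoli-like nuclei had 15 of 42 genes higher than in Leydig-like nuclei in all 4 libraries, beside 27% of all genes, and 5 lower (Imp3, Utp14b, Utp11, Emg1 and Nob1), beside 28.5%. Against round spermatid-like nuclei they had 24 of 43 higher, beside 29.1%, and 5 lower (Wdr75, Fbl, Utp14b, Tsr1 and Ltv1), beside 48.6%.

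Other genes of ribosome production were counted in the same way. Of 46 genes for assembly of the large subunit, 45 were higher in early meiotic prophase-like than in round spermatid-like nuclei in all 4 libraries, as were 15 of 15 genes for rRNA transcription and 23 of 26 further small subunit genes. Against spermatocyte-like nuclei these were 37, 11 and 14, beside 36.4% of all genes. Lower there were 4, 3 and 7, beside 37.8%. The further small subunit genes did not share the class order of the 43. They summed to 1932 ± 220 CPM in spermatocyte-like and 1898 ± 226 CPM in early meiotic prophase-like nuclei. Elongating spermatid-like nuclei held 1491 ± 122 CPM of them and Sertoli-like nuclei 1015 ± 108 CPM (SD, n = 4). Between round and elongating spermatid-like nuclei the direction was mixed. There, 13 of the 43 genes were higher in round spermatid-like nuclei in all 4 libraries, beside 39% of all genes, and 17 were lower, beside 42.6%.

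**Figure D2:**
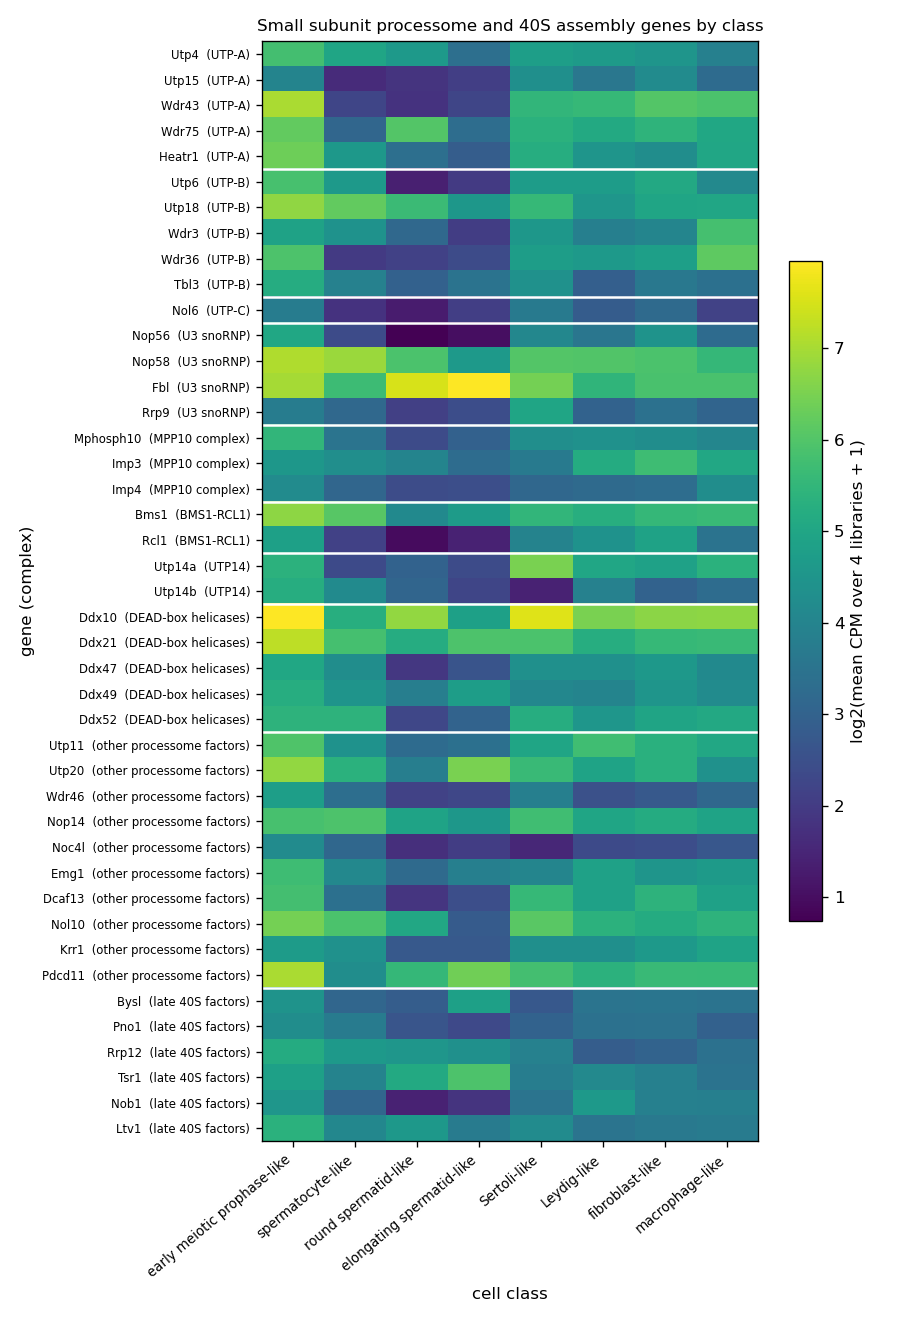
Mean level of each of the 43 genes over 4 libraries in 8 cell classes, as log2(CPM + 1), with genes in rows grouped by complex. The early meiotic prophase-like column is brightest for 29 genes, and Fbl, Bysl and Tsr1 are brightest in elongating spermatid-like nuclei.

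By complex, the largest ratios of early meiotic prophase-like to round spermatid-like level were in different subcomplexes. UTP-A, which binds the first part of the pre-rRNA and includes factors needed for its transcription, ranged from 1.16 for Wdr75 to 52.5 for Wdr43. Wdr43 stood at 109, 198, 95.3 and 115 CPM in early meiotic prophase-like nuclei and at 2.88, 2.16, 2.29 and 2.52 CPM in round spermatid-like nuclei, so every library showed the gap. Wdr75 in the same subcomplex was 82.1, 88.4, 65.6 and 59.8 CPM against 63.5, 78.5, 59.4 and 53.0 CPM, higher in each library but by little. Utp4, Utp15 and Heatr1, the other members, had ratios of 2.32, 5.77 and 8.62.

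UTP-B, a second scaffold beside the U3 RNA, ranged from 2.17 for Utp18 to 35.4 for Utp6, with Wdr36 at 17.7, Tbl3 at 5.21 and Wdr3 at 3.56. Utp6 was 70.6, 71.6, 44.1 and 41.6 CPM against 2.02, 1.24, 1.14 and 2.03 CPM. Wdr3 and Wdr36 were highest in macrophage-like nuclei, Wdr3 with 39.8, 64.2, 54.2 and 65.2 CPM. Nol6, the UTP-C member, had a ratio of 8.93 on 134 UMIs in both classes.

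Bms1, a GTPase, and its partner Rcl1 had ratios of 6.18 and 30.0. Rcl1 was 38.2, 37.9, 9.22 and 24.5 CPM in early meiotic prophase-like nuclei and 1.17, 0.498, 0.891 and 1.11 CPM in round spermatid-like nuclei. In the MPP10 complex, which helps U3 pair with the pre-rRNA, Mphosph10 had a ratio of 10.4 and Imp4 of 4.12. Imp3 had a ratio of 1.52, with 9.54, 29.5, 27.7 and 23.3 CPM against 12.3, 14.6, 15.7 and 16.8 CPM. WT replicate 1 ran the other way, and Imp3 was highest in fibroblast-like nuclei at 36.2, 49.1, 63.2 and 58.5 CPM.

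The DEAD-box helicases Ddx47, Ddx52, Ddx21, Ddx49 and Ddx10 had ratios of 11.6, 10.7, 4.15, 2.77 and 2.24, each higher in all 4 libraries. Among the other processome factors all 10 were higher in all 4 libraries. Dcaf13, a WD-repeat protein, led them with 45.8, 59.0, 58.4 and 56.6 CPM against 2.34, 2.07, 2.67 and 3.38 CPM, apart in every library. Utp20 (8.34), Wdr46 (7.71), Noc4l (7.71), Utp11 (7.14), the 18S methyltransferase gene Emg1 (6.12), Krr1 (4.34), Pdcd11 (2.89), Nol10 (2.66) and Nop14 (1.90) followed.

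The late 40S factors had a median ratio of 2.49, and 4 of the 6 were higher in all 4 libraries. Nob1, the endonuclease that makes the 3′ end of 18S rRNA, had a ratio of 13.1, its partner Pno1 3.52, Bysl 3.25 and Ltv1 1.73. Rrp12, an export factor, had 49.6, 37.9, 20.5 and 31.7 CPM against 21.8, 22.9, 24.3 and 19.6 CPM, and Dhx37-/- replicate 1 ran the other way. Tsr1, a GTPase-like factor of cytoplasmic pre-40S, had 41.98, 29.5, 20.5 and 18.6 CPM against 23.8, 53.8, 30.3 and 27.7 CPM. WT replicate 1 alone was higher in the former class. Tsr1 was highest in elongating spermatid-like nuclei, at 60.8, 67.2, 59.6 and 54.6 CPM, where no library overlapped with either class.

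Some of the genes share short sequences around their start sites, which the choice of genes did not use. Promoter sequences (250 bases before to 50 after the start site, RefSeq, GRCm38.p6) were at hand for 35 of the 43 genes. Each of 7 motifs, none of which holds another, was searched on both strands. CACGTG, the E-box that MYC and related factors can bind, was in 10 of the 35 promoters and in 8.91% of the promoters of 17492 protein-coding genes. CCGGAAGT, a sequence of the kind ETS factors bind, was also in 10 of 35 and in 5.69% of all. ATGGCG was in 15 of 35 against 12.4%, GGGCGG in 23 against 49.2%, CCAAT in 20 against 42.3%, TATAAA in 1 against 14.8%, and TGACGTCA in 2 against 2.54%. Utp4, Wdr46, Tsr1 and Ltv1 held both CACGTG and CCGGAAGT. The windows below, on the strand of the gene with the motif in capitals, are shown for Wdr43 with the largest class ratio, for Utp14b, and for Utp4 and Tsr1, which hold both motifs.
Wdr43, chr17:71616222-71616247, plus strand: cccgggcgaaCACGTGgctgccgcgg
Utp14b, chr1:78658367-78658392, plus strand: cgggcgcgggCACGTGggtggggtcg
Utp4, chr8:106893645-106893670, plus strand: cgcaagcgcgCACGTGgggccggggc
Utp4, chr8:106893610-106893637, plus strand: gccgcggagtACTTCCGGgacggcgctg
Tsr1, chr11:74898094-74898119, plus strand: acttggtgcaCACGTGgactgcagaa
Tsr1, chr11:74898069-74898096, plus strand: tcgggtccgcCCGGAAGTagagttcact
The Utp4 window with ACTTCCGG holds CCGGAAGT on the other strand. These are matches of letters, and binding was not measured. Tsr1 and Wdr43 share CACGTG and had class ratios of 0.815 and 52.5.

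Fbl went against most of the other genes, as Tsr1 did in 3 of 4 libraries. It encodes fibrillarin, the methyltransferase of the U3 and other box C/D RNPs, and its round spermatid-like level (99.7, 182, 211 and 240 CPM) exceeded its early meiotic prophase-like level (89.7, 126, 143 and 143 CPM) in all 4 libraries. Elongating spermatid-like nuclei had 142, 256, 284 and 301 CPM. Its protein partners in the U3 RNP did not share this. Nop56 was 28.6, 37.9, 26.6 and 32.8 CPM in early meiotic prophase-like and 0.856, 0.0830, 0.636 and 1.11 CPM in round spermatid-like nuclei, and Nop58 was 135, 156, 131 and 123 against 73.2, 53.1, 59.9 and 47.8 CPM. Rrp9, the U3-specific protein, was highest in Sertoli-like nuclei (22.5, 50.2, 22.2 and 27.2 CPM), higher than in early meiotic prophase-like nuclei in every library.

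The rise of Fbl was uneven among spermatid clusters. In the 3 round spermatid-like clusters it was 39.4 ± 8.74 CPM (led by Cntn3), 145 ± 52.3 CPM (Cntnap5a) and 343 ± 114 CPM (Eya4) (SD, n = 4). An unnamed cluster led by Pcdh10 reached 392 ± 124 CPM, and the elongating spermatid-like clusters 284 ± 90.8 CPM (Efemp1) and 114 ± 23.0 CPM (Ung). Over the same round spermatid-like clusters Nop58 was 72.9 ± 14.0, 69.9 ± 13.8 and 35.9 ± 6.04 CPM, so the cluster with the most Fbl had the least Nop58. WT replicate 1 had the lowest Fbl of the 4 libraries in 16 of 16 clusters and also in the free RNA (57.3 CPM, the others 61.7 to 94.5 CPM), and its part in the spread was not tested. Without Fbl, the 43 genes summed to 697 ± 23.9 CPM in round and 654 ± 19.6 CPM in elongating spermatid-like nuclei. With clusters at resolution 1.0, Fbl was 1.02 times as high in round spermatid-like as in early meiotic prophase-like nuclei, against 1.46 times here.

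**Figure D3:**
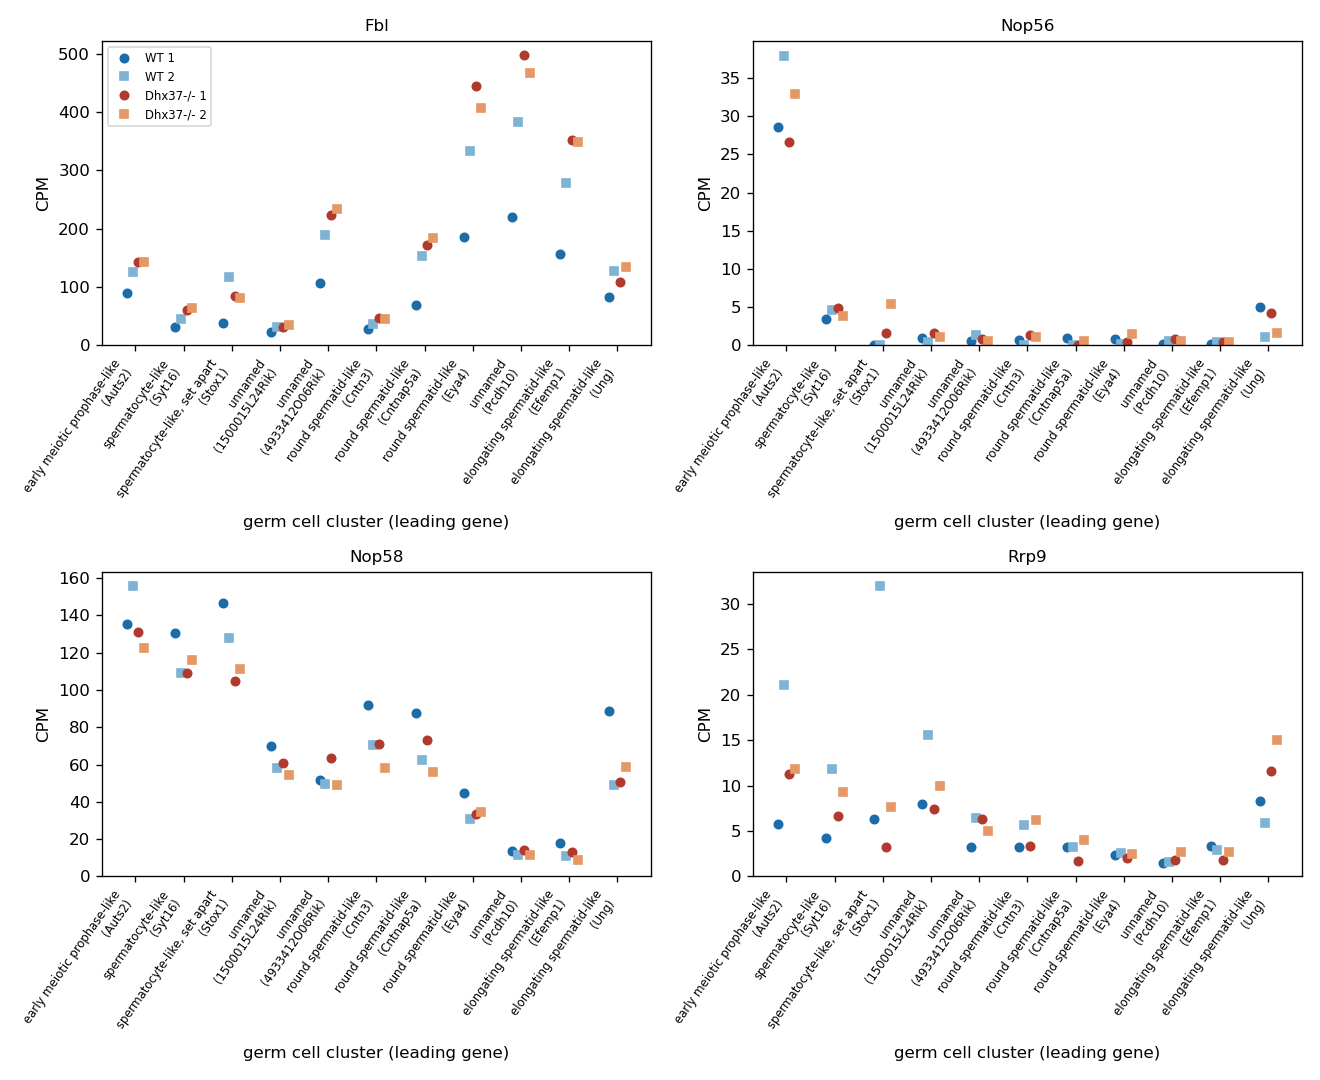
CPM of the 4 U3 RNP protein genes in 11 clusters, each labelled by its class name and leading gene, with 1 point per library. The axis calls them germ cell clusters, but 3 of them are unnamed and have no class. Fbl is highest in the clusters led by Eya4, Pcdh10 and Efemp1, where Nop56 lies near 0 and Nop58 at its lowest, and WT replicate 1 is the lowest Fbl point in each cluster.

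Utp14a and Utp14b were both counted in all 8 classes. Of these, Sertoli-like nuclei had the lowest share of Utp14b and spermatocyte-like nuclei the highest. In Sertoli-like nuclei Utp14a stood at 73.2, 75.3, 95.7 and 112 CPM, the highest of 8 classes in every library, and Utp14b at 0, 0, 3.42 and 3.35 CPM. In spermatocyte-like nuclei Utp14a was 3.88, 4.30, 4.26 and 4.23 CPM and Utp14b 21.9, 16.8, 14.6 and 16.1 CPM. No library of either class overlapped with the other for either gene.

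As a share of the UMIs of both genes, Utp14b made up 84.9, 79.7, 77.4 and 79.2% in spermatocyte-like nuclei, a mean of 80.3% ± 3.24 (SD, n = 4) on 242 UMIs. In Sertoli-like nuclei it was 11 of 405 UMIs, or 2.72% (exact 95% binomial interval 1.36 to 4.81%). In the class set apart, led by Stox1, it was 102 of 109 UMIs, or 93.6% (87.2 to 97.4%). Of the 109 UMIs, 11 came from WT replicate 1 and 0 from WT replicate 2. The share was 43.4% (37.7 to 49.3%) in early meiotic prophase-like, 51.8% (48.0 to 55.6%) in round spermatid-like and 47.0% (39.9 to 54.2%) in elongating spermatid-like nuclei, and the free RNA had 44.8%. These are pooled over libraries that differed. By library the round spermatid-like share was 59.9, 59.2, 47.8 and 42.01%, with both WT libraries above the pooled interval and both Dhx37-/- libraries below it. The early meiotic prophase-like share ran from 38.6 to 61.5% and the elongating spermatid-like share from 40 to 62.7%. In the free RNA the share was 53.8, 47.8, 40.5 and 37.3%, also with both WT libraries above both Dhx37-/- libraries. A genotype difference in the share was not tested. Leydig-like (29.1%), fibroblast-like (17.0%) and macrophage-like nuclei (17.9%) had lower shares. Intervals cover counting error only.

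The share sets both genes side by side by 3′ tags, so it is read here between classes and not as a ratio of transcript amounts. The longest run of bases shared by the annotated transcripts of both genes was 30. Utp14b lies within Acsl3 on the same strand, and reads of Utp14b and Acsl3 cannot always be told apart. Acsl3, an acyl-CoA synthetase gene, was 53.0 CPM in spermatocyte-like, 51.8 CPM in elongating spermatid-like and 4.59 CPM in Sertoli-like nuclei, while Utp14b was 17.3, 3.76 and 1.69 CPM. The free RNA held 12.2 CPM of Utp14a and 9.75 CPM of Utp14b, above the Utp14a level of spermatocyte-like nuclei. As a mean of the 4 library shares, Utp14b was 80.3% in spermatocyte-like and 1.59% in Sertoli-like nuclei. With the free RNA subtracted these means were 91.0% and 1.29%, and with nuclei assigned one by one from markers 73.2% and 15.9%.

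**Figure D4:**
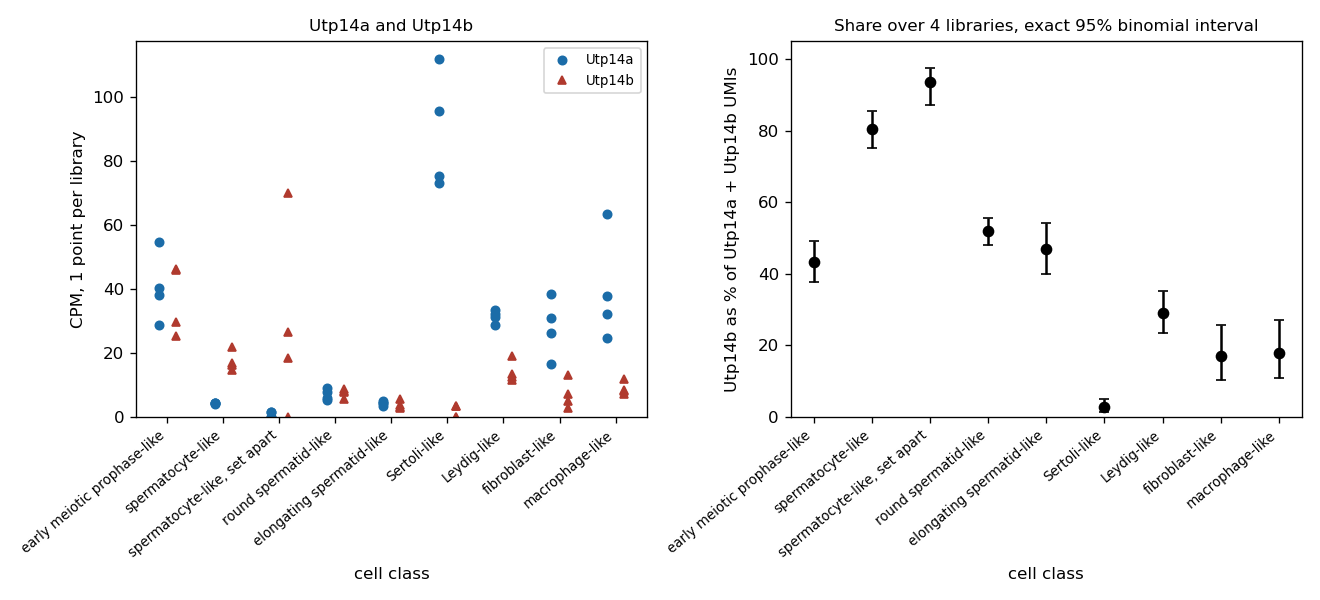
Left, CPM of Utp14a (circles) and Utp14b (triangles) by class, 1 point per library. Right, Utp14b as a percentage of the UMIs of both genes over 4 libraries with its exact 95% binomial interval, from 2.72% in Sertoli-like to 93.6% in the spermatocyte-like class set apart.

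Between genotypes, the question was whether loss of Dhx37 in Sertoli cells goes with other levels of the genes of its pathway. In Sertoli-like nuclei 36 of the 43 genes passed the filter on low counts, and edgeR's quasi-likelihood test called 0 of them at an adjusted p under 0.05, with 1 at an unadjusted p under 0.05. The background was the same, with 0% of 10337 genes called and 747 at an unadjusted p under 0.05, and DESeq2 called 0 genes. Estimates were higher in Dhx37-/- for 23 of the 36 genes and lower for 13, beside 50.9% of all genes tested with a higher estimate. Their median log2 fold change was 0.15, beside 0.01 over all genes tested, and the median standard error was 0.48. The median over the members tested was 0.32 without WT replicate 1, 0.09 without WT replicate 2, 0.24 without the filter on low counts and 0.34 with nuclei assigned one by one from markers. Nol6, Imp4, Utp14b, Wdr46, Noc4l, Bysl and Pno1 did not pass the filter, with 1 to 19 UMIs or none per library.

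Ddx21, a DEAD-box helicase that also acts in rRNA transcription, had the largest estimate. It was counted 8, 8, 93 and 154 times, or 16.7, 69.2, 79.3 and 77.4 CPM after TMM scaling. WT replicate 1 was low, while WT replicate 2 lay close to both knockouts. The log2 fold change was 1.42 ± 0.50 (SE), with an unadjusted p of 0.0150 and an adjusted p of 0.640 (edgeR). Without WT replicate 2, where WT is a single library assumed to vary like the others, Ddx21 was called (log2 fold change 2.20 ± 0.47, adjusted p 0.000813) as were 370 of 13023 genes, and it was the sole member of the 43 among them. Without WT replicate 1 its log2 fold change was 0.22 ± 0.52, with an adjusted p of 0.931 (edgeR), so the size of the estimate rested on that library. With nuclei assigned one by one from markers it was 0.64 ± 0.37.

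The next largest estimates were those of Nob1 (1.06 ± 0.75 on the log2 scale) and Imp3 (0.94 ± 0.69). Nob1 was counted 3, 1, 14 and 32 times and Imp3 6, 0, 23 and 37 times, so these rest on few UMIs in WT. The lowest estimates were −0.95 ± 0.50 for Utp15 (30.0, 16.7, 15.4 and 14.3 CPM), −0.62 ± 0.39 for Utp18 (41.3, 75.3, 34.2 and 34.9 CPM) and −0.45 ± 0.45 for Wdr36 (31.9, 25.1, 21.4 and 25.3 CPM). The adjusted p of these 5 genes in edgeR lay between 0.713 and 0.856. Without WT replicate 1 the estimates were −0.14 ± 1.05 for Utp15, −0.05 ± 0.82 for Wdr36 and −1.08 ± 0.54 for Utp18. Without WT replicate 2 they were −0.39 ± 0.41 for Utp18 and 0.58 ± 0.65 for Imp3, and without Dhx37-/- replicate 1 Wdr36 was at −0.26 ± 0.75. Imp3 had 0 UMIs in WT replicate 2, so no fold against that library alone is given. Utp14a, which encodes the relative of the yeast activator of this helicase, had both Dhx37-/- libraries above both WT libraries, with a log2 fold change of 0.41 ± 0.31 and an adjusted p of 0.804. Fbl had 54.5, 83.7, 126 and 80.8 CPM, overlapping groups, and a log2 fold change of 0.62 ± 0.36 (adjusted p 0.727), which was 0.31 ± 0.51 without WT replicate 1 and 0.30 ± 0.59 without Dhx37-/- replicate 1.

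**Figure D5:**
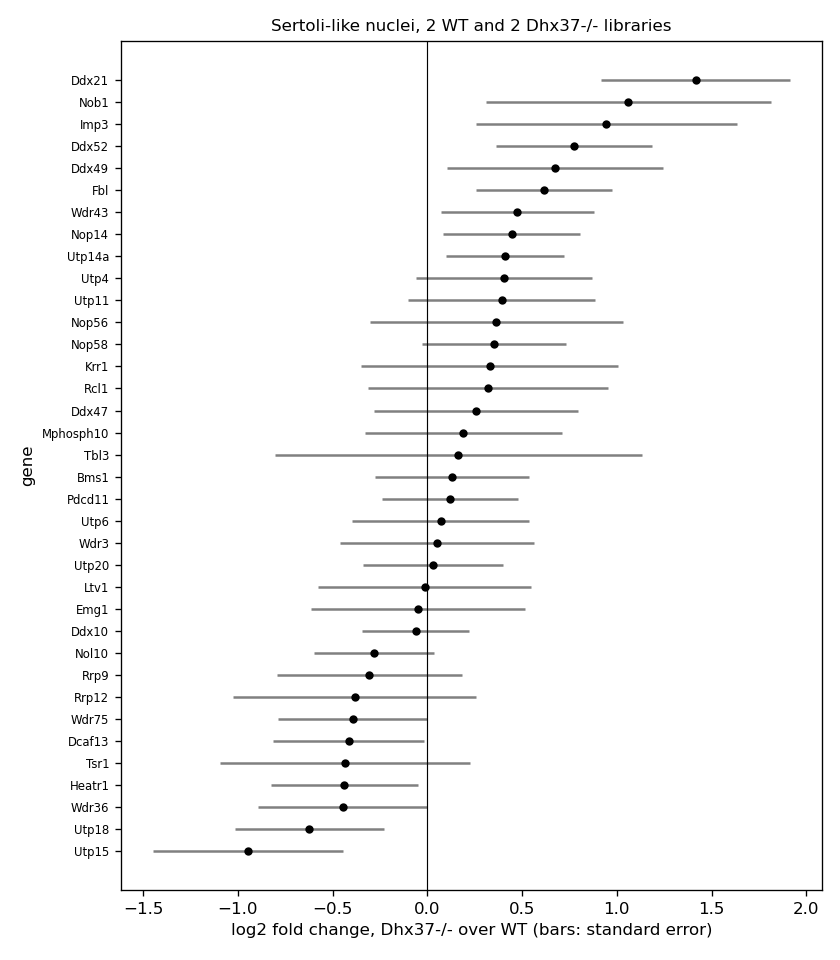
Log2 fold change of Dhx37-/- over WT in Sertoli-like nuclei for the 36 genes that passed the filter on low counts, with standard errors from edgeR. Estimates run from −0.95 for Utp15 to 1.42 for Ddx21, and 0 of the 36 passed an adjusted p of 0.05.

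In the other 7 classes compared, 22 to 43 of the 43 genes were tested and edgeR and DESeq2 each called 0 of them. The numbers at an unadjusted p under 0.05 were 5 of 42 in early meiotic prophase-like nuclei, where 1777 of all 11639 genes were, 0 of 32 in fibroblast-like nuclei and 1 in each other class. The background of all genes called was 0.43% in early meiotic prophase-like, 0.538% in macrophage-like, 0.0178% in fibroblast-like and 0.00896% in round spermatid-like nuclei, and 0% in spermatocyte-like, Leydig-like and elongating spermatid-like nuclei. In the last 3 of these, 1016, 808 and 2318 genes had an unadjusted p under 0.05, and DESeq2 called 4, 1 and 30 genes. The median log2 fold change of the tested genes ran from −0.03 in early meiotic prophase-like to 0.22 in fibroblast-like nuclei. These medians were not stable. With nuclei assigned one by one from markers they were 0.56 in early meiotic prophase-like and 0.59 in spermatocyte-like nuclei, against 0.03 in the latter here. The Leydig-like median was −0.02, and 0.33 without WT replicate 2. It was −0.21 without WT replicate 1 and −0.21 with free RNA subtracted. The fibroblast-like median was 0.05 without WT replicate 1. The elongating spermatid-like median was 0.21, and −0.01 both at resolution 1.0 and with nuclei assigned from markers. DESeq2's own filter left 21 of the 43 genes with an adjusted p in early meiotic prophase-like, 25 in elongating spermatid-like and 0 in macrophage-like nuclei. Of the other lists, the large subunit assembly, rRNA transcription and further small subunit genes, 0 were called by edgeR in any class, with median log2 fold changes from −0.11 to 0.28.

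The smallest unadjusted p over these classes was that of Fbl in macrophage-like nuclei, 0.00411. It was counted 14, 11, 47 and 46 times there. From spermatid genes, free RNA was estimated at 31.1, 18.4, 19.5 and 17.2% of the UMIs of this class. Fbl stood at 27.9, 44.1, 77.2 and 81.0 CPM, with both Dhx37-/- libraries above both WT libraries. Its log2 fold change was 1.18 ± 0.36, with an adjusted p of 0.144 (edgeR). In spermatocyte-like nuclei its log2 fold change was 0.66 ± 0.25 (adjusted p 0.830) and in round spermatid-like nuclei 0.63 ± 0.29 (adjusted p 0.632). Without WT replicate 2, Fbl was called in macrophage-like (1.43 ± 0.43), spermatocyte-like (0.89 ± 0.23) and both classes of spermatid-like nuclei (round 1.12 ± 0.18, elongating 1.02 ± 0.13), with adjusted p of 8.91e-08 to 0.0388 (edgeR). The comparison is then against WT replicate 1 alone, the library with the lowest Fbl in every cluster.

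Calls among the 43 genes appeared in these 7 classes when either WT library was left out, and none when either Dhx37-/- library was. Without WT replicate 1 there were 11, of 9 genes in 4 classes, and 7 of them were higher in Dhx37-/-. The largest rises were those of Dcaf13 (1.51), Imp4 (1.44) and Bms1 (1.15 on the log2 scale) in elongating spermatid-like nuclei, while Pdcd11 fell by 1.09 in early meiotic prophase-like and Utp20 fell by 0.94 in elongating spermatid-like nuclei. Without WT replicate 2 there were 11 in these classes, and with Ddx21 in Sertoli-like nuclei 9 of 12 calls were higher in Dhx37-/-. Imp3 rose by 1.26 in Leydig-like and by 2.29 in macrophage-like nuclei and Ddx21 by 1.25 in fibroblast-like nuclei. The falls were those of Utp6 (−0.69) in spermatocyte-like nuclei and of Ddx10 (−0.64) and Nop58 (−0.61) in elongating spermatid-like nuclei. Calls over all genes rose as well, to between 74 and 3615 per class without WT replicate 1 and between 295 and 4019 without WT replicate 2. In elongating spermatid-like nuclei, which had the most, 5 of 42 members were called beside 3615 of 19871 genes without WT replicate 1, and 3 of 42 beside 4019 of 19898 without WT replicate 2. In round spermatid-like nuclei these were 3 of 43 beside 2571 of 23569 genes and 2 of 43 beside 3272 of 23570. The share of members called was below that of all genes in these fits. The same held in each other class and fit without a WT library that called a member, Sertoli-like nuclei included. The exception was macrophage-like nuclei without WT replicate 2, where the share of members was above that of all genes. Without either Dhx37-/- library 0 to 78 genes were called per class.

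The genotype effect in Sertoli-like nuclei was also compared with that in each other class in a fit with a term for the library. Over the 7 comparisons 30 to 43 of the genes were tested and 0 were called, with 1 to 4 at an unadjusted p under 0.05 and the smallest adjusted p 0.192 (edgeR), for Ddx21 against elongating spermatid-like nuclei. A gene could pass the filter of these fits through the other class alone. The 1 to 4 include Utp14b against early meiotic prophase-like, spermatocyte-like and elongating spermatid-like nuclei. Utp14b had 0, 0, 4 and 7 UMIs in Sertoli-like nuclei and failed the filter there. The number of all genes at an unadjusted p under 0.05 is not given for these fits. Over all genes the same fits called 2 to 20 of 11598 to 21656 genes per comparison, most of them against early meiotic prophase-like (20 of 13334) and elongating spermatid-like nuclei (14 of 20278).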

How the data were processed

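The authors deposited raw UMI counts per gene and barcode for each library from Cell Ranger, before any filter or normalization. The file headers name version 7.2.0 and the methods v7.1. The methods give mm39 and the labels' processing notes GRCm38, so no coordinates were taken from the counts, and whether introns were counted is not given in the sources used here. The values were used as deposited. The 43 genes and all other lists were chosen with earlier results of these data known.

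Nuclei were called as Cell Ranger does and kept if they had from 500 to 5000 genes, 500 UMIs or more, and no more than 25% of UMIs from mitochondrial genes. Seurat 5.3.0 (2000 variable genes, 10 PCs, 20 neighbours, resolution 0.5) gave clusters. To be named, a cluster needed at least 3 markers at 20 CPM and 1.5 times the level elsewhere (limits set after the clusters were seen). Its mean log2 marker ratio also had to lead that of the next class by at least 0.2. A name could be withheld for the leading genes as well. None of the 43 genes was among the variable genes. No cluster took the name spermatogonia, so the early meiotic prophase-like class stands in its place in the rule below. Doublets (4.18 to 4.54% by Scrublet) were kept.

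UMIs were summed per class and library and tested with edgeR 4.0.16 (TMM, default filter, quasi-likelihood, two-sided, Benjamini-Hochberg over all genes) where each library held at least 20 nuclei, and in the Sertoli-like class. DESeq2 1.42.0 was an alternative, beside other normalization and filters, a replicate term, resolution 1.0, a marker gate per nucleus, doublets left out, nuclei of at least 1000 UMIs, free RNA subtracted and each library left out. The fits were tested on simulated counts. With 2 libraries per genotype p-values measure the spread between libraries only. All 43 genes were accounted for by role. Library values are given for Dhx37, Utp14a, Utp14b, Fbl, any gene called, the 3 largest changes each way in Sertoli-like nuclei, and the 5 highest and 5 lowest class ratios. Wdr3, Nop58, Rrp9 and Imp3 in further classes were named after their values were seen. By annotation (GENCODE M21), 7 of the 43 genes overlap another gene on the same strand and 19 on the opposite strand.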

Additional observations from a re-analysis of the deposited data

How the results depend on the processing

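No gene of the 43 was called between genotypes in any class under the alternatives tried, other than leaving out a WT library. Over the fits that left out each library in turn, 0 to 1 was called in Sertoli-like nuclei and 0 to 11 in the other classes together. Same-numbered libraries did not deviate together (correlation −0.01 in Sertoli-like and −0.21 in round spermatid-like nuclei, across genes), and with a replicate block 0 of the 43 were called. A crossed pairing, added after the data were seen, also called 0 of the 43, and over all genes it called 0 in Sertoli-like, 100 in round spermatid-like, 213 in early meiotic prophase-like, 214 in elongating spermatid-like and 241 in macrophage-like nuclei. Over all genes the block called 221 in early meiotic prophase-like, 177 in macrophage-like and 28 in elongating spermatid-like nuclei, against 50, 53 and 0 without it. Without the filter on low counts edgeR called 26 genes in Sertoli-like nuclei against 0, 326 in early meiotic prophase-like and 266 in elongating spermatid-like nuclei, and DESeq2 called 22 in macrophage-like and 27 in round spermatid-like nuclei against 53 and 2. In spermatocyte-like nuclei the marker gate called 1303 genes against 0, with none of the 43 among them, and the calls over all genes in macrophage-like and early meiotic prophase-like nuclei went to 0. With free RNA subtracted those in macrophage-like nuclei went to 0 and those in early meiotic prophase-like nuclei to 209. With the marker gate per nucleus, the estimates of Utp18 (0.26) and Wdr36 (0.49) in Sertoli-like nuclei turned positive, those of Utp15 (−0.16), Imp3 (0.18) and Fbl (0.27) were smaller and that of Utp14a (0.96) larger, the fold of early meiotic prophase-like over round spermatid-like level was 1.24, and the Utp14b share was 73.2% in spermatocyte-like and 15.9% in Sertoli-like nuclei. That gate needs 2 markers per nucleus. It named 37028 of 37034 nuclei, 11297 of them at this minimum, and gave 14629 the class of their cluster. It called 2062 nuclei Sertoli-like and 4615 early meiotic prophase-like, against 511 and 1082 by cluster. The cause of these shifts was not tested. With free RNA subtracted the fold was 3.49 and the spermatocyte-like share 91.0%. At resolution 1.0 the share was 73.0% and the Fbl fold 1.02, with other nuclei in the classes. Leaving out the spermatogonia-like subcluster, an alternative added later, gave a fold of 2.78. The 17 Sertoli-like nuclei of WT replicate 2 hold 119500 UMIs.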
